A study of Mus musculus with 15 samples.

Results

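The comparison described here is that of the PI3K inhibitor LY294002 with its vehicle DMSO, across all genes of the array, in 6 of the 15 arrays of the series. Primary chondrocytes, the cells that form cartilage, were isolated from the tibiae, femurs and humeri of CD1 mouse embryos at day 15.5 and cultured as a monolayer. The 3 LY294002 cultures (LY1 to LY3) received 10 µM of the inhibitor for 24 hours, and the 3 DMSO cultures (DMSO1 to DMSO3) received the vehicle for the same time. All were in medium with ascorbic acid and β-glycerophosphate. The groups used for direct comparison were 3 cultures with UO126, which blocks MEK upstream of ERK, and 3 with SB202190, usually described as a p38 inhibitor, each at 10 µM for 24 hours. The study describes 3 independent experiments, so p-values measure the spread between cultures of a group. That spread was pooled over all 5 groups of the series, including 3 cultures with the HDAC inhibitor TSA. LY294002 is not specific to a single PI3K enzyme and also acts on mTOR, so the comparison is one of a compound and its vehicle.

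PI3K phosphorylates a membrane lipid downstream of growth factor receptors such as those for insulin and IGF1, which recruits and activates Akt. Akt and the mTOR complexes then promote ribosome production, translation, nucleotide and lipid synthesis and survival, and Akt holds FoxO transcription factors out of the nucleus. In the growth plate, the pathway is known for its part in chondrocyte growth, hypertrophy and survival.

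Each array gave a MAS5 signal, a linear brightness value per probe set scaled to a common mean. Differences were tested on the log2 scale with limma, and a change was called at an adjusted p (Benjamini-Hochberg over all probe sets tested) under 0.05. Every log2 change is LY294002 minus DMSO with its SE, and n = 3 arrays a group throughout. Of 21765 probe sets tested, 1693 passed (7.78%), 969 higher and 724 lower. Taken as 1 probe set per gene, 1113 of 11751 genes passed (9.47%), 662 of them higher (5.63%) and 451 lower (3.84%). The groups did not overlap in 3357 genes (28.6%), and in 1104 of the 1113 that passed. Moderate changes picked by p outside the gene lists had to be free of overlap, so that trait is no support for them. Nearly all genes that passed had it, so for list members it adds no support to a call either. With replicate number as a block, 1924 genes passed (1117 higher, 807 lower). With the LY294002 and DMSO arrays alone in the fit, 488 probe sets passed, 283 higher and 205 lower. With 1 array left out, 849 to 1052 probe sets passed for each array but DMSO replicate 1, without which 1908 passed. When each array was instead centred on its median, the median log2 change of all probe sets moved to 0.124, and 1191 probe sets passed, 1021 higher and 170 lower. The higher share of the calls was thus 85.7% with centring and 57.2% without it. The median signal was 29.7 to 35.3 on the LY294002 arrays and 33.96 to 39.9 on the DMSO arrays. Falls in the families below should be read beside this dependence.

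The changes were mostly moderate. Of the 1113 genes, 1026 changed by less than 2-fold (635 higher, 391 lower), 521 of these by less than 1.4-fold, and 87 by 2-fold or more. In all 1026, each of the 3 LY294002 arrays lay on the same side of the DMSO array of its number. These genes were selected by the same arrays, so this is no separate support. In the fits that left out 1 of the 6 arrays, 357 genes (227 higher, 130 lower) passed every time. Correlations across probe sets were 0.97 to 0.978 among LY294002 arrays, 0.967 to 0.976 among DMSO arrays and 0.953 to 0.974 between them.

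The chondrocyte markers were present in both groups. All 16, among them Col2a1, Acan and Sox9, reached a mean signal of 50 with LY294002 and with DMSO, and none passed the test. Their summed signal was 39520 to 51260 with LY294002 and 29500 to 45870 with DMSO. In bulk cultures, fewer cells of a type and less RNA per cell cannot be told apart. Of the other cell types, no member passed for fibroblasts, macrophages, smooth muscle, osteoblasts or skeletal muscle, though all 9 skeletal muscle markers tested lay under 0 (median -0.556). The epithelial, adipocyte and endothelial markers that passed are given beside the genes they move with.

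Ribosome biogenesis had the lowest median of the 36 families described, and none of its members rose. These genes encode the nucleolar machinery that transcribes, cuts, modifies and assembles ribosomal RNA. Of 70 members tested, 0 rose and 17 fell, a share of 24.3% against 9.47% over all genes. Of the 70, 60 lay under 0, and the family median was -0.260, against 0.008 over all genes. With the replicate block 27 fell, and with the arrays centred 0 passed, with a median of -0.132. With quantile normalization 20 fell, with a median of -0.286, and with a mean signal of 100 required 20 of 69 fell. The number that fell was 7 without DMSO replicate 3 or LY294002 replicate 2, 9 without LY294002 replicate 3, and 12 to 15 without each of the other arrays. The plot of all 70 changes shows that most members sat below 0, including those that did not pass.

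**Figure D1:**
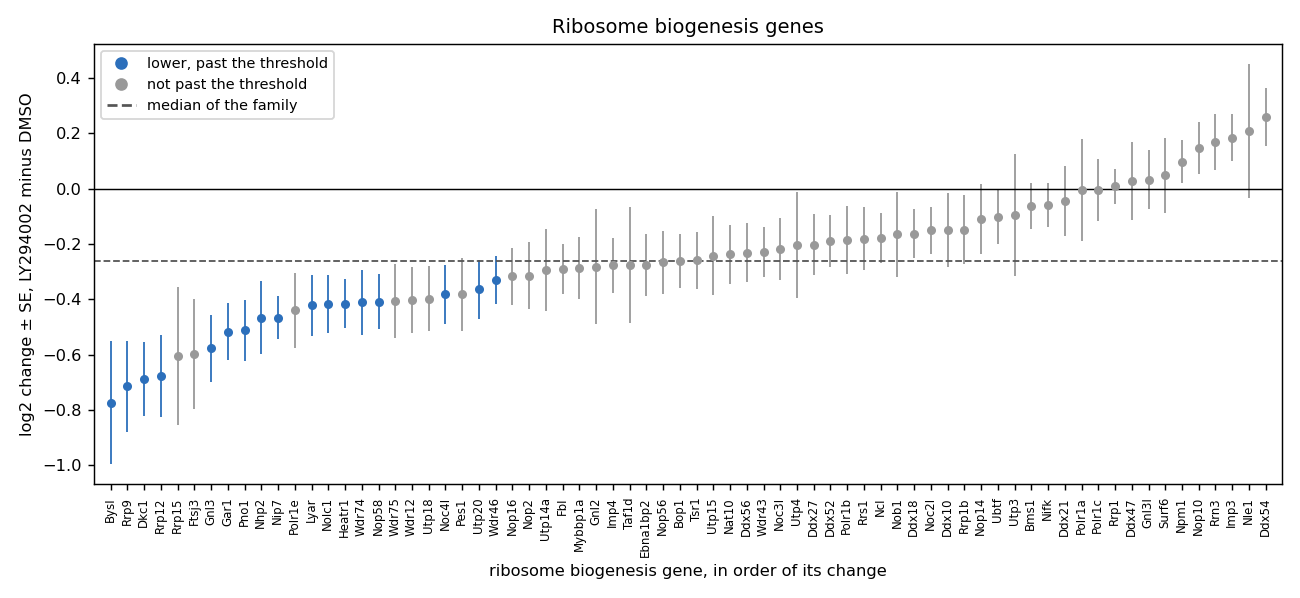
Log2 change (LY294002 minus DMSO, ± SE, vertical axis) of each of the 70 ribosome biogenesis genes tested, in order of their change (horizontal axis). The 17 blue points passed the threshold, the dashed line is the family median of -0.260, and 60 of the points lie under 0.

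Nip7, which acts in maturation of the large subunit RNA, had signals of 432, 401 and 434 with LY294002, against 565, 559 and 626 with DMSO. All LY294002 arrays lay below all DMSO arrays (log2 change -0.47 ± 0.076, adjusted p = 0.00247). Dkc1, the pseudouridine synthase dyskerin, had 447, 472 and 455 with LY294002, against 706, 668 and 851 with DMSO (log2 change -0.69 ± 0.13, adjusted p = 0.00633). Its partners in the box H/ACA particles changed the same way. Gar1 had 701, 609.8 and 623 with LY294002, against 1008, 821 and 941 with DMSO (log2 change -0.52 ± 0.10, adjusted p = 0.00756), and Nhp2 changed by -0.47 ± 0.13 (adjusted p = 0.0404). The groups did not overlap in these genes either.

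Heatr1, which is needed for ribosomal RNA transcription and processing of the small subunit, had 294, 304 and 314 with LY294002, against 389.8, 418 and 409.5 with DMSO (log2 change -0.42 ± 0.089, adjusted p = 0.0112). Gnl3, the nucleolar GTPase nucleostemin, had 489.8, 433 and 520.1 with LY294002, against 719, 612 and 832 with DMSO (log2 change -0.58 ± 0.12, adjusted p = 0.0102). Small subunit factors were also lower, with Pno1 at -0.51 ± 0.11, Rrp12 at -0.68 ± 0.15 and Rrp9 at -0.71 ± 0.17. Fbl, the methyltransferase fibrillarin, did not pass (log2 change -0.29 ± 0.091, adjusted p = 0.0624), though it did in 2 of 16 alternative settings. Nucleolin, Ncl (log2 change -0.18 ± 0.089, adjusted p = 0.24), and nucleophosmin, Npm1 (log2 change 0.10 ± 0.077, adjusted p = 0.482), did not pass either. Some calls ended when 1 array was left out, and the range of the adjusted p over all alternative settings is given with each. They were Gnl3 without LY294002 replicate 2 (adjusted p = 0.0509, alternatives 0.000369 to 0.13), Pno1 without DMSO replicate 3 (adjusted p = 0.0524, alternatives 0.00303 to 0.18), Rrp12 without DMSO replicate 3 (adjusted p = 0.0558, alternatives 0.00813 to 0.0898), Rrp9 without DMSO replicate 3 (adjusted p = 0.0638, alternatives 0.00724 to 0.0842) and Nhp2 without DMSO replicate 1 or 3 or LY294002 replicate 1, 2 or 3 (adjusted p up to 0.155, alternatives 0.00778 to 0.283). Nip7, Dkc1, Gar1 and Heatr1 passed in every fit with 1 array left out.

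Since most of these genes lay below 0, their promoters were read for short motifs. The windows are RefSeq promoters of build GRCm38.p6, from 250 bases before to 50 after each gene's start, and 63 of the 70 members had one, 16 of them among the 17 that fell. The core CGGAAG, which ETS-type factors recognize, was searched on both strands and stood in 40 of the 63 (63.5%), in 10 of the 16 that fell (62.5%) and in 30 of the 47 that did not pass (63.8%). Over the 250 bases upstream alone it stood in 10 of the 16 (62.5%) and in 18 of the 47 (38.3%). In the longer window it stood in 34.4% of all genes tested and in 18.8% of all promoters. The E-box CACGTG, read by Myc and other factors, stood in 13 of the 63 (20.6%), against 11.8% of genes tested and 8.09% of all promoters. It stood in 3 of the 16 that fell (18.8%) and in 10 of the 47 that did not pass (21.3%). Over the 250 bases upstream alone the E-box stood in 5 of the 63 (7.94%), against 10.1% of genes tested, and CGGAAG in 28 of the 63 (44.4%), against 28.1%. CATGTG, a relative of the E-box, stood in 6 of the 16 that fell (37.5%) and in 8 of the 47 (17.0%) in the longer window, against 9.92% of genes tested. Over the 250 bases it stood in 3 of the 16 (18.8%) and in 6 of the 47 (12.8%), against 8.65%. The FoxO motif GTAAACA stood in the longer window in 3.12% of the genes that rose, 3.31% of those that fell and 3.04% of all tested. The motifs were searched after the changes were known, a match is no evidence of binding, and no test was made.

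The last 120 bases before the start are shown for the 3 genes with the smallest p that hold CGGAAG there, and for Wdr46, the 1 gene of the 16 with an E-box upstream. Capitals mark CGGAAG or its reverse complement CTTCCG, which overlap in Wdr46, and CACGTG. The windows are chr8:107056757-107056876 (plus strand), chr3:129831397-129831516 (minus strand), chr13:12395255-12395374 (plus strand) and chr17:33940603-33940722 (plus strand), each printed 5′ to 3′ on the strand of the gene.
Nip7: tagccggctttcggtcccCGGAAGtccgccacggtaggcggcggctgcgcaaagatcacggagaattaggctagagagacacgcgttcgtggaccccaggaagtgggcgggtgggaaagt
Gar1: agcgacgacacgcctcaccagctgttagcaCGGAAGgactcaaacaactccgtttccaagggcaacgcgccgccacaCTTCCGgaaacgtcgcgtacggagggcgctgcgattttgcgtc
Heatr1: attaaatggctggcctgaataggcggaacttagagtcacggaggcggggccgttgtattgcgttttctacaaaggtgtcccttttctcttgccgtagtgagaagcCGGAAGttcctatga
Wdr46: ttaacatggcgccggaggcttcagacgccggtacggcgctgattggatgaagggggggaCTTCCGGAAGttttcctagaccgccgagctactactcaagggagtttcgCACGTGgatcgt

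Genes that supply ribosome production and growth also lay on the negative side. In nucleotide and one-carbon synthesis, 0 of 43 members rose and 6 fell (14%, against 9.47% over all genes), with a median of -0.188. Ak1, an adenylate kinase, had 1108, 1207 and 1164 with LY294002, against 1424, 1560 and 1643 with DMSO (log2 change -0.41 ± 0.073, adjusted p = 0.00423), without overlap. Atic, which completes purine synthesis, had 544, 441 and 448 with LY294002, against 672, 704 and 753 with DMSO (log2 change -0.58 ± 0.12, adjusted p = 0.0107). Aprt, which salvages adenine, changed by -0.45 ± 0.11, and Shmt2, the mitochondrial serine hydroxymethyltransferase, by -0.44 ± 0.13. With the block 11 members fell, and with centring 1, with a median of -0.060. Without DMSO replicate 2 or 3 or LY294002 replicate 1 or 2, 3 fell. Calls that ended with 1 array left out were Atic without LY294002 replicate 2 (adjusted p = 0.05, alternatives 0.00411 to 0.0986), Aprt without DMSO replicate 2 or 3 or LY294002 replicate 1 (adjusted p up to 0.0749, alternatives 0.00302 to 0.152) and Shmt2 without DMSO replicate 2 or 3 or LY294002 replicate 1 or 2 (adjusted p up to 0.154, alternatives 0.0119 to 0.243).

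Polyamines are small cations needed for growth, and some transcripts of their enzymes and regulators changed. Srm, spermidine synthase, had 1387, 1425 and 1441 with LY294002, against 1755, 1926 and 2130 with DMSO (log2 change -0.45 ± 0.09, adjusted p = 0.00817). Oaz2, an antizyme that inhibits ornithine decarboxylase, had 1023, 1008 and 1070 with LY294002, against 786, 749 and 757 with DMSO (log2 change 0.44 ± 0.067, adjusted p = 0.00165). The groups did not overlap in either gene, and both calls held with each array left out in turn. Odc1, ornithine decarboxylase itself, had 0.07 ± 0.087 (adjusted p = 0.667). Over the 21 members of the polyamine, proline and glutamine family, 1 rose and 3 fell (median -0.041, and 0.087 with centring), a share of 19% against 9.47% over all genes. The falls included Sat1, which acetylates polyamines for their breakdown (adjusted p = 0.0273, alternatives 0.00157 to 0.281). Its call held in 8 of 16 alternatives.

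Among mitochondrial import and chaperone genes, 0 of 36 members rose and 7 fell (11 with the block), with a median of -0.194. Their share of calls was 19.4%, against 9.47% over all genes. Timm8a1, an intermembrane space chaperone, had 418, 330.1 and 306 with LY294002, against 626, 474 and 527 with DMSO (log2 change -0.63 ± 0.12, adjusted p = 0.00548). The import channel gene Tomm40 had 452, 493 and 578 with LY294002, against 764, 713 and 1009 with DMSO (log2 change -0.70 ± 0.15, adjusted p = 0.0129). Hspd1, the matrix chaperonin HSP60, changed by -0.34 ± 0.10. With centring 0 members passed and the median was -0.066. The count was 1 without DMSO replicate 3, 2 without LY294002 replicate 1 or 2, and 4 or 5 without each of the others. The call ended for Tomm40 without DMSO replicate 3 or LY294002 replicate 1 (adjusted p up to 0.0604, alternatives 0.00121 to 0.0721) and Hspd1 without DMSO replicate 2 or 3 or LY294002 replicate 1, 2 or 3 (adjusted p up to 0.154, alternatives 0.00165 to 0.336), and held for Timm8a1.

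Other parts of the translation machinery changed in few members. Of 47 translation initiation and elongation factors, 2 rose and 3 fell (4 and 7 with the block; median -0.085, and 0.044 with centring). Eif4a2, an RNA helicase of the cap-binding complex, rose (log2 change 0.30 ± 0.07, adjusted p = 0.0185), and Eif4e, the cap-binding protein, had -0.32 ± 0.10 (adjusted p = 0.0665, and 0.028 with the replicate block), though 1 of its 3 probe sets fell. Of 32 aminoacyl-tRNA synthetases, 0 rose and 2 fell (6 with the block), with a median of -0.134 (-0.006 with centring). Of 52 nuclear pore and transport genes, 0 rose and 3 fell (7 with the block; median -0.103, and 0.025 with centring). Of 73 splicing factors 1 rose and 0 fell (1 and 3 with the block), with a median of -0.009 (0.119 with centring) and a share of calls of 1.37%. That share was 10.6% in the translation factors, 6.25% in the synthetases and 5.77% in nuclear pore and transport genes, against 9.47% over all genes. The call of Eif4a2 ended with 1 array left out, Eif4a2 without LY294002 replicate 1 (adjusted p = 0.0681, alternatives 0.0108 to 0.117).

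Of the 20 moderate falls selected by p outside the lists, 4 are given here for their known roles in RNA and growth. No such family was counted. Ddx39a, an RNA helicase of mRNA export, had 851, 850.3 and 785 with LY294002, against 1388, 1402 and 1747 with DMSO (log2 change -0.86 ± 0.095, adjusted p = 0.000167). Pa2g4, the growth-regulated RNA-binding protein EBP1, had 948, 966 and 943 with LY294002, against 1333, 1582 and 1573 with DMSO (log2 change -0.65 ± 0.085, adjusted p = 0.000607). Both were lower on every LY294002 array. Mak16, a factor of large subunit assembly, had 418, 424 and 449.7 with LY294002, against 581, 543 and 605 with DMSO (log2 change -0.42 ± 0.071, adjusted p = 0.00293). Ppa1, the pyrophosphatase that removes a by-product of RNA and tRNA reactions, had 630.4, 508 and 549 with LY294002, against 925, 903 and 898 with DMSO (log2 change -0.70 ± 0.10, adjusted p = 0.0014). In each the groups were fully apart, which their selection required, and each call held with each array left out in turn. The mitochondrial genes Mrpl45, a ribosomal protein (-0.65 ± 0.10), and Ndufaf4, an assembly factor of complex I (-0.64 ± 0.10), also fell.

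**Figure D2:**
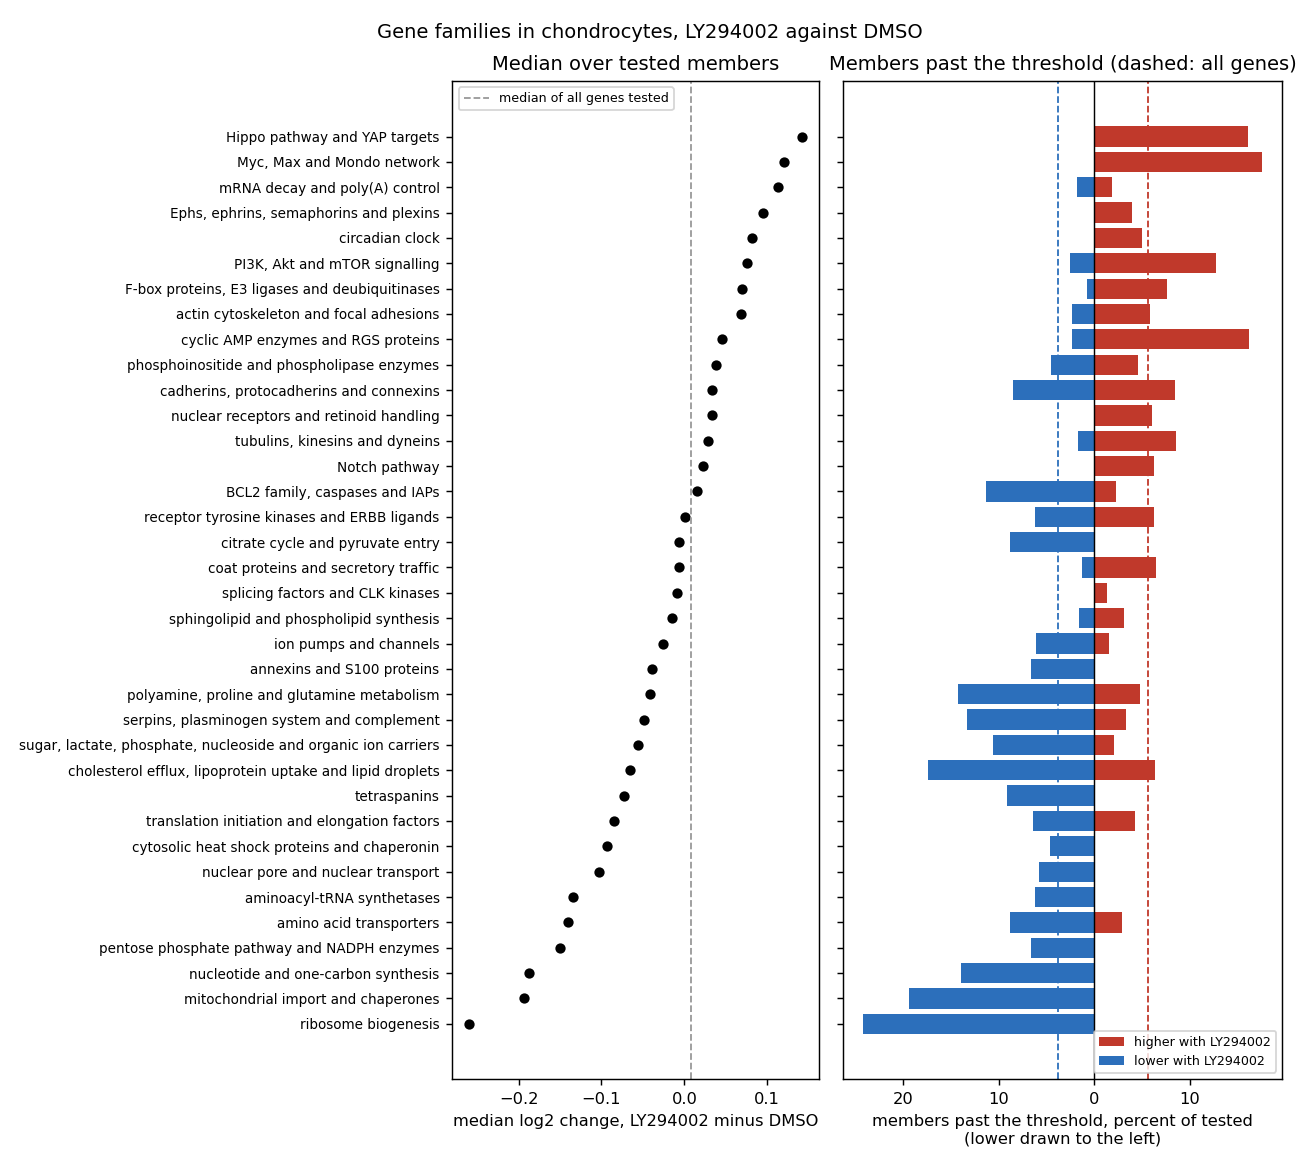
Median log2 change (left) and percent of tested members past the threshold (right; higher in red to the right, lower in blue to the left) for 36 gene families, LY294002 against DMSO. Dashed lines give the same over all 11751 genes, whose median is 0.008; ribosome biogenesis lies lowest with 17 of 70 members lower.

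The second family with many calls was that of cholesterol efflux, lipoprotein uptake and lipid droplets. Of 63 members tested, 4 rose and 11 fell, 23.8% in all against 9.47% over all genes (median -0.065, and 0.064 with centring). Centring left 4 higher and 5 lower. Of the 15 calls, 9 held in every fit with 1 array left out, and the count was lowest without LY294002 replicate 3, with 3 higher and 6 lower.

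Receptors of the family split by direction. Scarb1, the HDL receptor SR-BI, had 397, 329.9 and 425 with LY294002, against 728, 752 and 791 with DMSO (log2 change -0.99 ± 0.10, adjusted p = 9.49e-05), and all 3 of its probe sets fell. Lrp8, the apolipoprotein E receptor 2, had 91.2, 84.3 and 87 with LY294002, against 170.4, 139 and 147 with DMSO (log2 change -0.79 ± 0.14, adjusted p = 0.00449). Both receptors were lower on every LY294002 array. The opposite change was seen in Lrp1, a large endocytic receptor that clears lipoproteins and proteases, which had 736, 882 and 929 with LY294002, against 381, 503 and 607 with DMSO (log2 change 0.79 ± 0.15, adjusted p = 0.00476). Lrp6, a co-receptor of Wnt proteins, had 662, 689 and 716 with LY294002, against 455, 487 and 504 with DMSO (log2 change 0.52 ± 0.087, adjusted p = 0.00309). The chaperone of this receptor family, Lrpap1, also rose, with 1378, 1267 and 1347 with LY294002, against 912, 978 and 909.6 with DMSO (log2 change 0.51 ± 0.065, adjusted p = 0.000462). No LY294002 array overlapped a DMSO array in these 5 genes, which for Lrpap1 the selection required, and no single array decided a call.

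Among the members past the threshold were enzymes and carriers of fatty acids. Fabp5, a fatty acid-binding protein, had 2079, 1991 and 1770 with LY294002, against 2619, 2845 and 2716 with DMSO (log2 change -0.49 ± 0.077, adjusted p = 0.00192). Acot7, an acyl-CoA thioesterase, had 430.1, 394 and 371 with LY294002, against 590.3, 534 and 582 with DMSO (log2 change -0.52 ± 0.085, adjusted p = 0.00248). Acsl5, an acyl-CoA synthetase named outside the lists, had 376, 345 and 355 with LY294002, against 611, 579 and 602 with DMSO (log2 change -0.74 ± 0.077, adjusted p = 0.000114). No LY294002 array reached a DMSO array in these 3 genes, which for Acsl5 the selection required. Plin2, the coat protein of lipid droplets, had 466, 418 and 393 with LY294002, against 575, 549 and 548 with DMSO (log2 change -0.39 ± 0.084, adjusted p = 0.0116), and the lipase gene Lipg changed by -0.96 ± 0.19. Pnpla8, a phospholipase of mitochondria and peroxisomes, was higher, with 529.6, 517 and 565 with LY294002, against 364, 328 and 354 with DMSO (log2 change 0.62 ± 0.079, adjusted p = 0.000433). Mid1ip1, which activates acetyl-CoA carboxylase, fell (-0.51 ± 0.08), and so did Tmem97, the sigma-2 receptor (-0.73 ± 0.13). The call of Plin2 ended in 1 case, Plin2 without LY294002 replicate 3 (adjusted p = 0.0517, alternatives 0.00744 to 0.25).

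Fabp4, the fatty acid-binding protein of fat cells, had 200.1, 486 and 288 with LY294002, against 631, 597 and 590.1 with DMSO (log2 change -0.996 ± 0.26, adjusted p = 0.0284), and Plin4 changed by -1.09 ± 0.29 with overlapping groups. Of the 4 adipocyte markers on the array, Fabp4 alone reached the signal for testing, and Adipoq, Cidec and Lep lay under a mean of 20 in both groups. The summed adipocyte signal was 224 to 501 with LY294002 and 606 to 648 with DMSO, and its part in the falls of this family was not tested. The calls ended for Fabp4 without DMSO replicate 1, 2 or 3 or LY294002 replicate 1 or 3 (adjusted p up to 0.115, alternatives 0.00559 to 0.115) and Plin4 without DMSO replicate 2 or 3 or LY294002 replicate 1 or 3 (adjusted p up to 0.124, alternatives 0.00838 to 0.124).

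**Figure D3:**
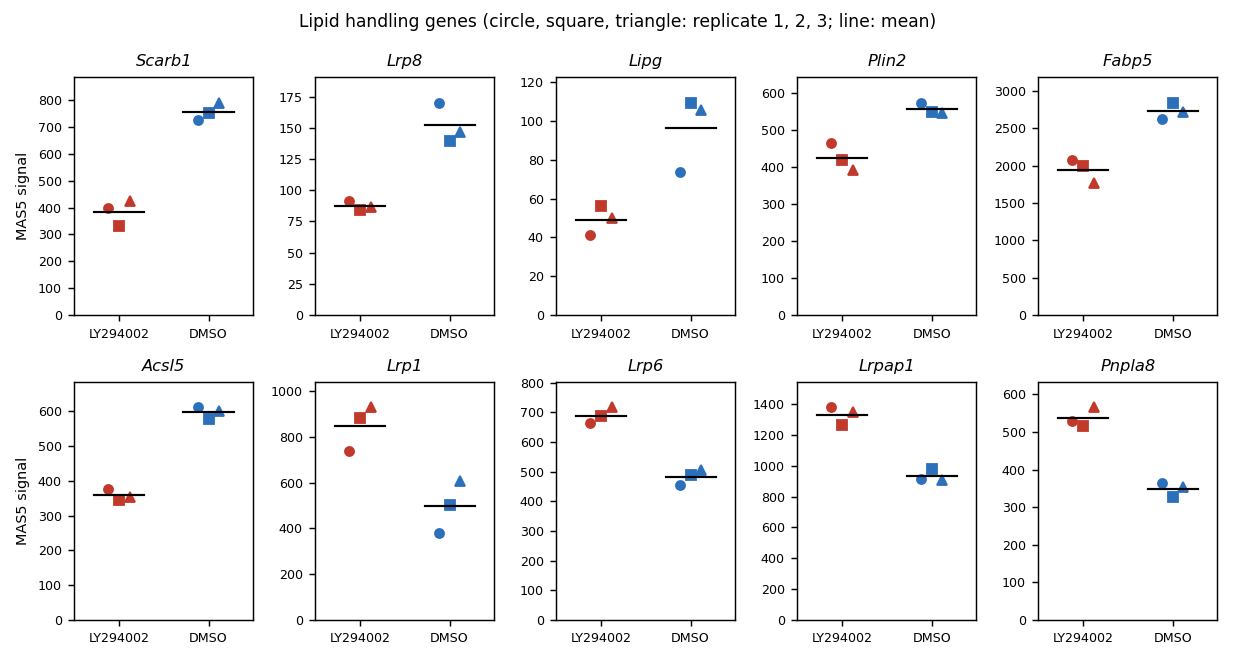
MAS5 signal (vertical axes, from 0) of 10 lipid handling genes on the 3 LY294002 arrays (red, left) and the 3 DMSO arrays (blue, right), with the group mean as a line. Scarb1, Lrp8, Lipg, Plin2, Fabp5 and Acsl5 lie lower with LY294002, and Lrp1, Lrp6, Lrpap1 and Pnpla8 lie higher, without overlap.

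Components of the PI3K pathway itself changed in a few members. Of 39 genes of PI3K, Akt and mTOR signalling, 5 rose and 1 fell, with a median of 0.076 (4 and 1 without DMSO replicate 1, and 2 and 1 without each of the other arrays in turn). Their share of calls was 15.4%, against 9.47% over all genes. Pik3r3, a regulatory PI3K subunit, had 107, 83.2 and 88.8 with LY294002, against 194, 169 and 168 with DMSO (log2 change -0.94 ± 0.15, adjusted p = 0.00185). Mtor, the kinase of both mTOR complexes, had 334, 314 and 344 with LY294002, against 249.6, 242 and 257 with DMSO (log2 change 0.41 ± 0.081, adjusted p = 0.00749). Gab1, a docking adaptor that binds PI3K, had 427, 394 and 393 with LY294002, against 297, 299.8 and 300.1 with DMSO (log2 change 0.44 ± 0.094, adjusted p = 0.0115). The groups did not overlap and the 3 calls held with each array left out in turn. Rises that depended on single arrays were in the catalytic subunit Pik3ca (0.40 ± 0.11), the mTORC2 subunit Rictor (0.40 ± 0.12) and the Akt phosphatase Phlpp2 (0.71 ± 0.20). They ended as Pik3ca without DMSO replicate 2 or 3 or LY294002 replicate 1, 2 or 3 (adjusted p up to 0.147, alternatives 0.028 to 0.147), Rictor without any 1 of the 6 arrays (adjusted p up to 0.132, alternatives 0.0168 to 0.132) and Phlpp2 without DMSO replicate 2 or 3 or LY294002 replicate 1, 2 or 3 (adjusted p up to 0.162, alternatives 0.0187 to 0.162). Akt1 (0.06 ± 0.11, adjusted p = 0.782) and Akt2 (-0.02 ± 0.078, adjusted p = 0.889) did not pass.

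At the receptor end, 3 genes outside the lists were looked at after their values were seen. Igf1r, the IGF1 receptor, had 801, 800.1 and 793 with LY294002, against 509, 484 and 501 with DMSO (log2 change 0.68 ± 0.13, adjusted p = 0.00713), with no overlap, and 2 of its 3 probe sets rose. Fgfr3, which restrains growth plate chondrocytes, had 1464, 1666 and 1697 with LY294002, against 1079, 1002 and 1193 with DMSO (log2 change 0.56 ± 0.10, adjusted p = 0.00443). The adaptor Irs1 had 1955, 2065 and 2207 with LY294002, against 1290, 1678 and 1537 with DMSO (log2 change 0.47 ± 0.11, adjusted p = 0.0165), a call that ended for Irs1 without LY294002 replicate 2 or 3 (adjusted p up to 0.0597, alternatives 0.0038 to 0.0736). These 3 genes of growth factor reception were higher on every LY294002 array. Grb14, an adaptor that inhibits the insulin receptor, had 255, 312 and 254 with LY294002, against 434, 427 and 448 with DMSO (log2 change -0.68 ± 0.12, adjusted p = 0.0036). Pim3, a serine/threonine kinase that shares substrates with Akt, had 1011, 924 and 1025 with LY294002, against 604, 554 and 579 with DMSO (log2 change 0.77 ± 0.091, adjusted p = 0.000301). Grb14 and Pim3 are among the moderate changes selected by p outside the lists, in opposite directions.

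Of 32 receptor tyrosine kinases and ERBB ligands, 2 rose and 2 fell (0 and 2 without DMSO replicate 2 or 3 or LY294002 replicate 1, 1 and 2 without LY294002 replicate 2 or 3). Vegfd, a ligand of lymphatic and vascular receptors, had 171, 189 and 164 with LY294002, against 343, 407 and 330.5 with DMSO (log2 change -1.04 ± 0.11, adjusted p = 9.59e-05). Met, the receptor of hepatocyte growth factor, had 138, 111 and 95.4 with LY294002, against 288, 238 and 210.2 with DMSO (log2 change -1.10 ± 0.20, adjusted p = 0.00507). Both were lower on every LY294002 array. The collagen receptor Ddr1 had 1280, 1099 and 983 with LY294002, against 930.0, 580.5 and 626 with DMSO (log2 change 0.68 ± 0.15, adjusted p = 0.0133). The ephrin ligand Efnb2 had 858, 922 and 849 with LY294002, against 540.5, 383 and 458 with DMSO (log2 change 0.94 ± 0.12, adjusted p = 0.00041), and the Slit receptor Robo1 changed by 0.66 ± 0.14. These were the 2 rises among 51 Ephs, ephrins, semaphorins and plexins, of which 0 fell. Their share of calls was 3.92%, and that of the receptor tyrosine kinases and ERBB ligands 12.5%, against 9.47% over all genes. Single arrays ended the calls of Ddr1 without DMSO replicate 2 or 3 or LY294002 replicate 1 (adjusted p up to 0.0624, alternatives 0.00119 to 0.0853) and Robo1 without LY294002 replicate 2 (adjusted p = 0.0544, alternatives 0.00581 to 0.0641).

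Genes of cyclic AMP signalling had a share of calls above the background, at 18.6%. Of 43 cyclic AMP enzymes and RGS proteins, 7 rose and 1 fell, with a median of 0.045, and with 1 array left out 3 to 6 rose. The count was 3 without DMSO replicate 2 or 3 or LY294002 replicate 1 or 3, and 4 without LY294002 replicate 2. Adcy7, an adenylyl cyclase, had 119, 86.8 and 113 with LY294002, against 279.5, 209 and 224 with DMSO (log2 change -1.16 ± 0.19, adjusted p = 0.00204). Prkacb, a catalytic subunit of protein kinase A, had 712, 658 and 683 with LY294002, against 496, 475 and 500.0 with DMSO (log2 change 0.48 ± 0.087, adjusted p = 0.00468). The cyclase was thus lower and the kinase subunit higher, without overlap. Pde4b, a phosphodiesterase that breaks down cyclic AMP, had 295, 249.6 and 236 with LY294002, against 174, 125 and 159 with DMSO (log2 change 0.77 ± 0.15, adjusted p = 0.0065). Pde5a, which breaks down cyclic GMP, had 125, 126 and 135 with LY294002, against 80.3, 57.5 and 65.6 with DMSO (log2 change 0.94 ± 0.17, adjusted p = 0.00405). The groups were apart in these 4 genes and the calls held with each array left out in turn. Smaller rises in Adcy6 (0.37 ± 0.10), Adcy9 (0.39 ± 0.10) and the regulatory subunit Prkar1a (0.30 ± 0.08) did not hold, as Adcy6 without DMSO replicate 2 or 3 or LY294002 replicate 1, 2 or 3 (adjusted p up to 0.104, alternatives 0.021 to 0.104), Adcy9 without any 1 of the 6 arrays (adjusted p up to 0.0895, alternatives 0.0159 to 0.13) and Prkar1a without DMSO replicate 2 or 3 or LY294002 replicate 1, 2 or 3 (adjusted p up to 0.13, alternatives 0.0216 to 0.13).

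The Hippo pathway is a kinase cascade that holds the growth regulators YAP and TAZ out of the nucleus. The list of its genes together with targets of YAP had the highest family median (0.142). Of 31 members, 5 rose and 0 fell (11 and 2 with the replicate block), a share of 16.1% against 9.47% over all genes. Without DMSO replicate 1 there were 8 rises, and without each of the other arrays in turn there were 3. Amotl2, an angiomotin that binds YAP, had 1986, 1972 and 2011 with LY294002, against 1407, 1464 and 1543 with DMSO (log2 change 0.44 ± 0.07, adjusted p = 0.00217). Its relative Amot had 608, 553 and 524 with LY294002, against 439, 361 and 377 with DMSO (log2 change 0.52 ± 0.10, adjusted p = 0.00677). Lats2, the kinase that phosphorylates YAP, had 1058, 1114 and 1094 with LY294002, against 822, 599 and 688 with DMSO (log2 change 0.64 ± 0.12, adjusted p = 0.00622). All 3 were apart between the groups and held with each array left out in turn. Wwtr1, which encodes TAZ, changed by 0.34 ± 0.09, and ended as Wwtr1 without DMSO replicate 2 or 3 or LY294002 replicate 1, 2 or 3 (adjusted p up to 0.125, alternatives 0.00649 to 0.125). Yap1 had 0.14 ± 0.10 (adjusted p = 0.394) and the target Ccn1 had 0.49 ± 0.18 (adjusted p = 0.106, and 0.024 with the replicate block).

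Among the genes of transcription control, 3 of 17 members of the Myc, Max and Mondo network rose and 0 fell, with a median of 0.12. They were Mlxip, a glucose-responsive partner of Mlx (0.46 ± 0.11), Mga, a Max partner of a repressive complex (0.60 ± 0.15), and Mycbp2, a ubiquitin ligase that binds Myc (0.34 ± 0.091). Myc itself had 0.35 ± 0.11 (adjusted p = 0.0712, and 0.024 with the block). Of 20 clock genes 1 rose (1 rose and 1 fell with the block), Csnk1e, a casein kinase that phosphorylates PER proteins, with 359, 359.6 and 343 with LY294002, against 253, 245 and 275 with DMSO (log2 change 0.46 ± 0.081, adjusted p = 0.004). In the Notch pathway, 2 of 32 members rose, the sheddases Adam10 (0.37 ± 0.11) and Adam17 (0.33 ± 0.084), and in 33 nuclear receptor genes 2 rose, the coregulators Nrip1 (0.46 ± 0.11) and Ncoa1 (0.63 ± 0.18). The share of calls was 17.6% in the Myc, Max and Mondo network, against 9.47% over all genes. It was 5% in clock genes, 6.25% in the Notch pathway and 6.06% in nuclear receptor genes. With the block 3 nuclear receptor genes rose and 1 fell. All of these calls but that of Csnk1e ended with some array left out. They ended for Adam10 without DMSO replicate 2 or 3 or LY294002 replicate 1 or 2 (adjusted p up to 0.145, alternatives 0.0138 to 0.145), Adam17 without DMSO replicate 2 or 3 or LY294002 replicate 1 or 2 (adjusted p up to 0.0957, alternatives 0.0173 to 0.101), Mlxip without DMSO replicate 3 or LY294002 replicate 1 or 2 (adjusted p up to 0.0885, alternatives 0.0134 to 0.131), Mga without DMSO replicate 2 or 3 or LY294002 replicate 1 or 2 (adjusted p up to 0.0921, alternatives 0.0137 to 0.0921), Mycbp2 without DMSO replicate 2 or 3 or LY294002 replicate 1, 2 or 3 (adjusted p up to 0.123, alternatives 0.0247 to 0.123), Nrip1 without DMSO replicate 3 or LY294002 replicate 1 or 2 (adjusted p up to 0.0758, alternatives 0.00469 to 0.0817) and Ncoa1 without DMSO replicate 2 or 3 or LY294002 replicate 1, 2 or 3 (adjusted p up to 0.172, alternatives 0.0251 to 0.172).

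Among the moderate changes selected outside the lists, the rise with the smallest p was in Reck, a membrane-anchored inhibitor of matrix metalloproteinases. Reck had 1430, 1483 and 1520 with LY294002, against 824, 863 and 724 with DMSO (log2 change 0.88 ± 0.084, adjusted p = 5.8e-05). Cdon, a surface receptor that binds hedgehog proteins, had 1070, 1009 and 1158 with LY294002, against 666, 552 and 617 with DMSO (log2 change 0.82 ± 0.081, adjusted p = 7.84e-05). Sfrp1, a secreted antagonist of Wnt proteins, had 821, 821 and 827 with LY294002, against 469, 468 and 431 with DMSO (log2 change 0.85 ± 0.10, adjusted p = 0.000177), and 3 of its 5 probe sets rose. All 3 act at the cell surface or outside the cell. Npnt, the matrix ligand nephronectin, had 410.3, 399 and 381 with LY294002, against 269, 222 and 226 with DMSO (log2 change 0.74 ± 0.10, adjusted p = 0.000696), and Igdcc4, a surface protein of the immunoglobulin superfamily, changed by 0.77 ± 0.10. In all of these the lowest LY294002 array lay above the highest DMSO array, which their selection required.

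Other surface and matrix genes fell. Itga6, the laminin-binding integrin α6, had 437, 273 and 384 with LY294002, against 671, 632 and 634 with DMSO (log2 change -0.85 ± 0.13, adjusted p = 0.00192). Col18a1, a basement membrane collagen, had 112, 135 and 122 with LY294002, against 226, 274 and 237 with DMSO (mean 123 ± 11.8 and 246 ± 25.4 SD, adjusted p = 0.00143). Has2, the enzyme that makes hyaluronan, had 344, 300.1 and 268 with LY294002, against 559.9, 451 and 461 with DMSO (log2 change -0.69 ± 0.11, adjusted p = 0.0017). The integrin, the collagen and the synthase were all lower on every LY294002 array. Ptprv, a receptor-type phosphatase, had 170.4, 191 and 194 with LY294002, against 308, 384 and 417 with DMSO (log2 change -0.99 ± 0.15, adjusted p = 0.0014). The tetraspanin-like Tm4sf1 had 587, 443 and 541 with LY294002, against 987, 817 and 1224 with DMSO (log2 change -0.94 ± 0.17, adjusted p = 0.00398). The groups did not overlap in these 5 genes, which the selection required of all but Tm4sf1, and no single array decided their calls.

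**Figure D4:**
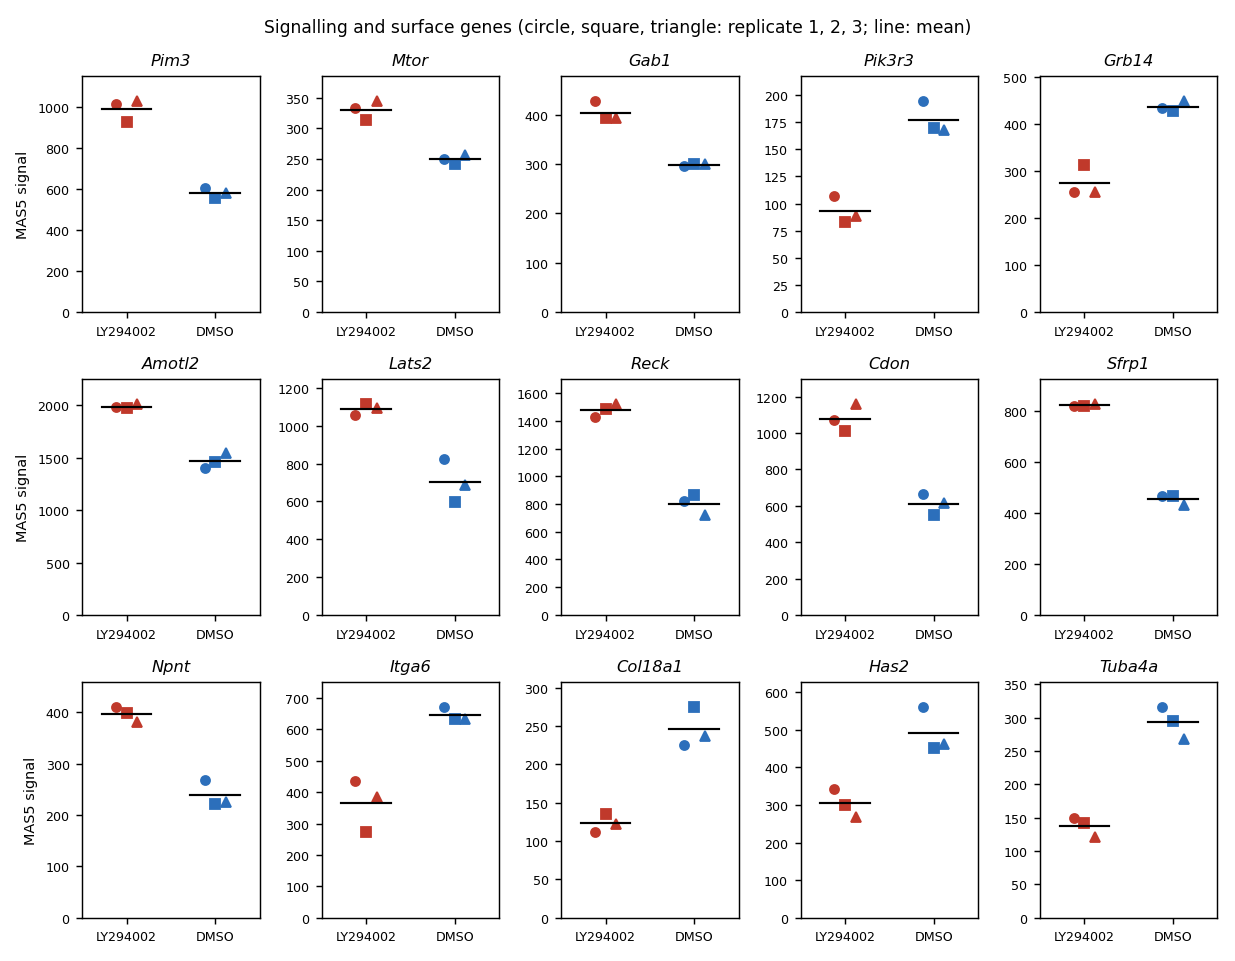
MAS5 signal (vertical axes, from 0) of 15 signalling, surface and cytoskeletal genes on the 3 LY294002 arrays (red, left) and the 3 DMSO arrays (blue, right), with the group mean as a line. Pim3, Mtor, Gab1, Amotl2, Lats2, Reck, Cdon, Sfrp1 and Npnt lie higher with LY294002 and the other 6 lie lower, without overlap.

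Junction genes changed in both directions, 4 higher and 4 lower of 47, a share of 17% against 9.47% over all genes. Without DMSO replicate 2 or LY294002 replicate 1, 1 was higher and 2 lower, and without LY294002 replicate 2, 1 and 3. Without DMSO replicate 3 they were 2 and 3. With signals under 50 set to 50, 4 were higher and 2 lower, and with a mean signal of 100 required, 4 and 1 of 22. With centring they were 3 and 4. Of the falls, 3 were in genes of low signal. The plakophilin Pkp1, a desmosome protein, had 22.2, 17 and 11.7 with LY294002, against 84.3, 84.5 and 68 with DMSO (adjusted p = 0.00271). The connexin Gjb5 had 19.2, 19.7 and 28 with LY294002, against 53.6, 53.7 and 53 with DMSO (adjusted p = 0.00589, and 0.359 with signals under 50 set to 50, the highest of its alternatives, which start at 0.00368). Between the groups compared, the means of both reached 50 with DMSO and not with LY294002, so that no fold is given for them. Gjb2, another connexin, changed by -0.87 ± 0.19. Cldn6 lay under 50 on all 6 arrays, so the size of its change has no firm value. Of those that rose, the junctional adhesion molecule Jam3 had 326, 328 and 338 with LY294002, against 266, 258 and 258 with DMSO (log2 change 0.34 ± 0.077, adjusted p = 0.014). The scaffold Tjp1 changed by 0.34 ± 0.089 and the mesenchymal cadherin Cdh11 by 0.31 ± 0.087. Calls ended for Gjb2 without DMSO replicate 2 or LY294002 replicate 1 (adjusted p up to 0.0541, alternatives 0.00434 to 0.0716), Tjp1 without DMSO replicate 1 or 2 or LY294002 replicate 1, 2 or 3 (adjusted p up to 0.113, alternatives 0.0178 to 0.113) and Cdh11 without any 1 of the 6 arrays (adjusted p up to 0.131, alternatives 0.0292 to 0.131).

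The epithelial markers lay on the same side. Of 7 tested, 0 rose and 2 fell, Krt18 and Krt19, with a median of -0.739, and Cdh1 and Krt14 lay under 50 on all 6 arrays. The summed epithelial signal was 355 to 1093 with LY294002 and 785 to 1884 with DMSO. Epcam varied between arrays within both groups, at 66, 276 and 780 with LY294002 and 152, 1227 and 1165 with DMSO (adjusted p = 0.406). Of 3 endothelial markers tested 1 passed, Esam, whose mean lay under 50 with LY294002 and with DMSO, so that it was tested only through the signal of another group. Their part in the junction genes was not tested.

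In the cytoskeleton, Tuba4a, an α-tubulin, had 149.9, 143 and 121 with LY294002, against 316, 295 and 268 with DMSO (log2 change -1.09 ± 0.10, adjusted p = 5.8e-05). It was the 1 member of 58 tubulins, kinesins and dyneins that fell, while 5 rose (10 with the block, 5 without DMSO replicate 1, 1 to 3 without each of the others), among them the motor Kif1b with 340.1, 392.4 and 428 with LY294002, against 208, 238 and 318 with DMSO (log2 change 0.62 ± 0.13, adjusted p = 0.0105). Of 86 actin and focal adhesion genes, 5 rose and 2 fell (8 and 5 with the block, 6 and 1 with centring or with a mean signal of 100 required). Without LY294002 replicate 2, 1 rose and 1 fell, and without each of the other arrays but DMSO replicate 3, 2 rose. The share of calls was 8.14% in actin and focal adhesion genes and 10.3% in tubulins, kinesins and dyneins, against 9.47% over all genes. Parvb, a focal adhesion parvin, had 25.6, 25 and 32.5 with LY294002, against 69.6, 67.7 and 73.3 with DMSO (adjusted p = 0.000559). Its mean reached 50 with DMSO and not with LY294002, and no fold is given. The myosin light chain Myl9 had 1356, 1387 and 1446 with LY294002, against 964, 1161 and 1096 with DMSO (log2 change 0.38 ± 0.088, adjusted p = 0.0165). The call of Myl9 ended for Myl9 without LY294002 replicate 3 (adjusted p = 0.0567, alternatives 0.0032 to 0.0796). Sun2, which ties the nucleus to the cytoskeleton, rose (log2 change 0.63 ± 0.079, adjusted p = 0.000429).

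Among apoptosis genes, 1 of 44 rose and 5 fell (5 and 6 with the block), a share of 13.6% against 9.47% over all genes. Of the 44, 23 lay above 0 and 21 below, with a median of 0.015. With centring 0 rose and 2 fell, and the median was 0.143. With 1 array left out, 2 fell without LY294002 replicate 2 or 3, and 3 or 4 without each of the others. Ripk3, a kinase of necroptosis, had 265, 259.7 and 301 with LY294002, against 411, 471 and 456 with DMSO (log2 change -0.70 ± 0.10, adjusted p = 0.00103). Bak1, a pore-forming member of the BCL2 family, had 258, 284 and 246 with LY294002, against 375, 418 and 454 with DMSO (log2 change -0.66 ± 0.10, adjusted p = 0.00133). The groups were apart in both and the calls held with each array left out in turn. The survival genes Bcl2 (adjusted p = 0.399), Bcl2l1 (adjusted p = 0.696) and Bcl2l2 (adjusted p = 0.433) of the same list did not pass. Bok (-0.53 ± 0.14), Bid (-0.45 ± 0.13) and Aifm1 (-0.38 ± 0.093), which also promote cell death, fell, while Xiap, an inhibitor of caspases, rose (0.31 ± 0.079). These 4 calls ended for Bok without DMSO replicate 1 or 3 or LY294002 replicate 1, 2 or 3 (adjusted p up to 0.114, alternatives 0.0228 to 0.146), Bid without DMSO replicate 2 or 3 or LY294002 replicate 2 or 3 (adjusted p up to 0.154, alternatives 0.0351 to 0.257), Aifm1 without DMSO replicate 1 or 2 or LY294002 replicate 2 or 3 (adjusted p up to 0.0912, alternatives 0.0104 to 0.306) and Xiap without DMSO replicate 2 or 3 or LY294002 replicate 1 or 2 (adjusted p up to 0.107, alternatives 0.0102 to 0.116).

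Of 131 F-box proteins, E3 ligases and deubiquitinases, 10 rose and 1 fell (16 and 5 with the block, 10 and 0 with centring), a total share of 8.40% against 9.47% over all genes. With 1 array left out, 3 rose and 0 fell without DMSO replicate 2, 5 and 1 without LY294002 replicate 2, and 6 and 0 without LY294002 replicate 1 or 3. DMSO replicate 1 or 3 left out gave 7 or 8 rises, and the 2 groups alone gave 0 and 0. Fbxo21, a substrate receptor of an SCF ligase, had 456, 547 and 483 with LY294002, against 397, 291 and 241 with DMSO (log2 change 0.70 ± 0.14, adjusted p = 0.00771). Usp22, a histone deubiquitinase, had 1011, 907 and 971 with LY294002, against 779.8, 714 and 704 with DMSO (log2 change 0.39 ± 0.084, adjusted p = 0.0111). Klhl24, an adaptor of a cullin 3 ligase named outside the lists, had 325, 310.2 and 279 with LY294002, against 167, 157 and 157 with DMSO (log2 change 0.92 ± 0.10, adjusted p = 0.000202). None of the 3 overlapped between groups, which for Klhl24 the selection required, and no single array ended a call. Of its 4 probe sets tested, 1 of Klhl24 passed.

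Of the 20 moderate falls selected by p outside the lists, 3 picked here for their function encode reductases or transferases. These were not counted as a family. Gsta4, a glutathione transferase that clears lipid aldehydes, had 255, 237 and 210.0 with LY294002, against 445, 482 and 385 with DMSO (log2 change -0.90 ± 0.10, adjusted p = 0.00017). Akr1b8, an aldo-keto reductase, had 322, 281 and 290.0 with LY294002, against 477, 498 and 447 with DMSO (log2 change -0.67 ± 0.088, adjusted p = 0.000559). Cbr2, a carbonyl reductase, had 249.3, 282 and 263 with LY294002, against 440.4, 451 and 408 with DMSO (log2 change -0.71 ± 0.11, adjusted p = 0.00164). All 3 were lower on every LY294002 array, which their selection required. A small heat shock protein, Hspb8, had 211, 219 and 233 with LY294002, against 350.0, 349 and 358 with DMSO (log2 change -0.67 ± 0.077, adjusted p = 0.000223), and was 1 of 2 falls among 43 cytosolic heat shock proteins and chaperonins, of which 0 rose (6 falls with the block, 1 with centring or without DMSO replicate 2 or LY294002 replicate 2 or 3, 4 without DMSO replicate 1 and 3 without LY294002 replicate 1). No LY294002 array reached a DMSO array in Hspb8 either. The share of calls in its family was 4.65%, against 9.47% over all genes. Enzymes that rose were Glb1, the lysosomal β-galactosidase, with 329, 331 and 357 with LY294002, against 232, 217 and 212 with DMSO (log2 change 0.62 ± 0.083, adjusted p = 0.000673), and Aldh6a1, a mitochondrial dehydrogenase of valine breakdown (log2 change 0.84 ± 0.12, adjusted p = 0.00102).

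Small-molecule carriers, amino acid transporters and the serpin, plasminogen and complement genes had shares of calls above the 9.47% over all genes. Their counts moved with the scaling and with single arrays. Ion pumps and channels (7.58%) and secretory traffic (7.79%) lay below that share. Of 47 carriers of sugars, lactate and other small molecules, 1 rose and 5 fell, a share of 12.8%. With the block 4 rose and 9 fell, but with centring 2 rose and 0 fell and the median of -0.056 became 0.072. With 1 array left out, 1 fell without DMSO replicate 2 or 3 or LY294002 replicate 2, 2 without LY294002 replicate 1 and 3 without each of the others. Of 34 amino acid transporters 1 rose and 3 fell (11.8%; 4 and 6 with the block, 1 and 0 with centring). No more than 2 of them fell with any 1 array left out, and none without DMSO replicate 2. Slc36a4 rose (0.48 ± 0.10) and its relative Slc36a1 fell (-0.52 ± 0.12), both proton-coupled amino acid transporters. Fxyd5, a regulator of the sodium pump, had 327, 318 and 380.1 with LY294002, against 499, 528 and 654 with DMSO (log2 change -0.71 ± 0.11, adjusted p = 0.00184). Of 30 serpin, plasminogen and complement genes, 1 rose and 4 fell (16.7%; 3 and 6 with the block, 2 and 3 with centring). Without DMSO replicate 2, 0 rose and 2 fell, and without LY294002 replicate 1 or 2, 0 and 3. Procr, the protein C receptor, had 67.2, 59.4 and 58.7 with LY294002, against 130.2, 148 and 114 with DMSO (log2 change -1.08 ± 0.12, adjusted p = 0.000167), and Serpinb6a, an intracellular protease inhibitor, had 1329, 1221 and 1304 with LY294002, against 1632, 1552 and 1809 with DMSO (log2 change -0.37 ± 0.077, adjusted p = 0.00982). Secretory traffic had 5 rises and 1 fall of 77 (4 and 0 with centring; 2 and 1 without DMSO replicate 3 or LY294002 replicate 1 or 3), with the COPII coat gene Sec23b lower (log2 change -0.41 ± 0.07, adjusted p = 0.00305) and the Golgi protein Golim4 higher (log2 change 0.45 ± 0.085, adjusted p = 0.00577). The calls ended for Slc36a4 without LY294002 replicate 1 (adjusted p = 0.0529, alternatives 0.00367 to 0.0764) and Slc36a1 without DMSO replicate 2 or LY294002 replicate 2 (adjusted p up to 0.066, alternatives 0.0107 to 0.106).

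The remaining families had few calls, none with a share above the 9.47% over all genes. Shares close to it were 9.09% in phosphoinositide and phospholipase enzymes and in tetraspanins, and 8.82% in the citrate cycle. They were 7.58% in ion pumps and channels, and 6.67% in the pentose phosphate pathway and in annexins and S100 proteins. The lowest were 4.69% in sphingolipid and phospholipid synthesis and 3.7% in mRNA decay. The calls numbered 3 of 64 in sphingolipid and phospholipid synthesis (2 higher, 1 lower), 4 of 44 in phosphoinositide and phospholipase enzymes (2 and 2), 3 of 34 in the citrate cycle (0 and 3), and 1 of 15 in the pentose phosphate pathway (0 and 1). With the block these were 10, 5, 4 and 4. They numbered 2 of 54 in mRNA decay (1 and 1), 5 of 66 in ion pumps and channels (1 and 4), 2 of 22 in tetraspanins (0 and 2) and 1 of 15 in annexins and S100 proteins (0 and 1), and with the block 8, 8, 2 and 2. With centring, the falls were 0 in sphingolipid and phospholipid synthesis, phosphoinositide enzymes, the citrate cycle, the pentose phosphate pathway, mRNA decay and annexins, and 1 each in ion pumps and channels and in tetraspanins. Counts this small also moved with single arrays, and without LY294002 replicate 2 none of the phosphoinositide, citrate cycle and mRNA decay genes passed.

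LY294002 was also set against the other kinase inhibitors directly, without a DMSO array. These contrasts share the 3 LY294002 arrays with the comparison above. Of the 11751 genes, 961 passed against UO126 (8.18%; 512 higher, 449 lower) and 867 against SB202190 (7.38%; 424 higher, 443 lower). Over probe sets, the higher share of the calls was 54.3% against UO126 (77.7% with centring) and 50.5% against SB202190 (69.7% with centring). Ribosome biogenesis had 1 member higher and 3 lower of 70 against UO126 (median -0.098) and 0 and 1 against SB202190 (median -0.055). Lipid efflux, uptake and droplet genes had 5 higher and 10 lower of 63 against UO126 (median -0.059) and 4 and 19 against SB202190 (median -0.288).

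Some genes stood apart with LY294002 from all other groups shown. Sfrp1 had 821, 821 and 827 with LY294002, 476, 529 and 401 with UO126, 478, 485 and 425 with SB202190 and 469, 468 and 431 with DMSO. Its LY294002 signals were higher by 0.82 ± 0.10 against UO126 (adjusted p = 0.000158) and 0.83 ± 0.10 against SB202190 (adjusted p = 0.00016) on the log2 scale. Cdon differed by 0.66 ± 0.081 against UO126 (adjusted p = 0.000252) and 0.72 ± 0.081 against SB202190 (adjusted p = 0.000158), Lrp1 by 0.77 ± 0.15 against UO126 (adjusted p = 0.00547) and 0.70 ± 0.15 against SB202190 (adjusted p = 0.00971), and Zswim6, a zinc finger protein, by 0.77 ± 0.10 against UO126 (adjusted p = 0.000347) and 0.71 ± 0.10 against SB202190 (adjusted p = 0.000657). Scarb1 had 397, 329.9 and 425 with LY294002, 690.0, 748 and 753 with UO126, 619.6, 598 and 664 with SB202190 and 728, 752 and 791 with DMSO, and differed by -0.94 ± 0.10 against UO126 (adjusted p = 0.000102) and -0.71 ± 0.10 against SB202190 (adjusted p = 0.000708). Hspb8 had 211, 219 and 233 with LY294002, 428, 407 and 377 with UO126, 416, 382 and 376 with SB202190 and 350.0, 349 and 358 with DMSO, and differed by -0.87 ± 0.077 against UO126 (adjusted p = 2.13e-05) and -0.82 ± 0.077 against SB202190 (adjusted p = 3.02e-05). Tuba4a differed by -0.88 ± 0.10 against UO126 (adjusted p = 0.000146) and -1.32 ± 0.10 against SB202190 (adjusted p = 4.31e-06). In none of these 7 genes did an LY294002 array overlap an array with UO126, SB202190 or DMSO. The 7 were picked from genes that had passed against DMSO on the same LY294002 arrays, so this is no separate support. For Sfrp1, Cdon and Zswim6 the selection required that the LY294002 and DMSO arrays be apart. The share of all genes with such a separation was not counted.

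Other genes differed from 1 of the inhibitors in another way. Klhl24 had 325, 310.2 and 279 with LY294002, 161, 159 and 159 with UO126, 293, 282 and 243 with SB202190 and 167, 157 and 157 with DMSO. It differed by 0.93 ± 0.10 against UO126 (adjusted p = 0.00014), while the difference of 0.16 ± 0.10 against SB202190 (adjusted p = 0.431) did not pass. Has2 had 344, 300.1 and 268 with LY294002, 294, 287 and 325 with UO126, 184, 187 and 179 with SB202190 and 559.9, 451 and 461 with DMSO. Its signals with LY294002 differed by 0.00 ± 0.11 against UO126 (adjusted p = 0.987), which did not pass, and by 0.72 ± 0.11 against SB202190 (adjusted p = 0.000957), so that SB202190 gave the lowest values. Grb14 differed by -0.96 ± 0.12 against UO126 (adjusted p = 0.000265) and 0.68 ± 0.12 against SB202190 (adjusted p = 0.00299), with opposite signs. Myl9, which encodes a light chain of non-muscle and smooth muscle myosin, differed by -0.58 ± 0.088 against UO126 (adjusted p = 0.00133) and 0.78 ± 0.088 against SB202190 (adjusted p = 0.000145), also with opposite signs. Itga6 differed by -0.09 ± 0.13 against UO126 (adjusted p = 0.745), which did not pass, and -0.69 ± 0.13 against SB202190 (adjusted p = 0.0065).

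**Figure D5:**
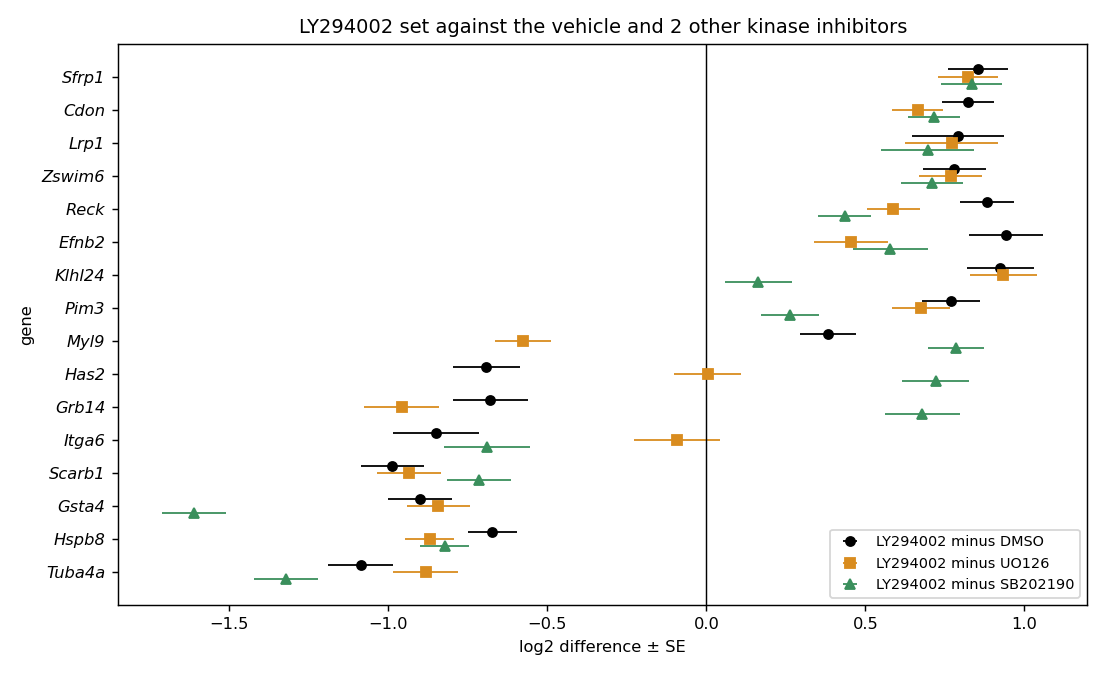
Log2 difference ± SE (horizontal axis) of 16 genes for LY294002 minus DMSO (black circles), minus UO126 (orange squares) and minus SB202190 (green triangles). All 3 contrasts share the LY294002 arrays; Sfrp1 and Scarb1 keep 1 sign in all 3, while Myl9 and Grb14 have opposite signs against UO126 and SB202190.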

How the data were processed

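RNA of 15 cultures was hybridised to 15 Affymetrix mouse arrays, and the 3 LY294002 and 3 DMSO arrays are compared here. The deposited values are intensity signals on a linear scale that the authors computed with MAS5, which summarises the probes of a probe set and scales each array to a common mean. No scanner values were used, and the number of arrays, not a read depth, limits the precision. Of the 45101 probe sets, 64 controls were left out, and 34958 have a single gene symbol, 932 several and 9211 none listed, in platform annotation updated through RefSeq gene IDs. Groups and replicate numbers come from the sample labels.

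Signals under 1 were set to 1 and taken to log2. Probe sets with a mean signal of 50 in at least 1 group were kept, and the means of all 5 groups (with 3 arrays of TSA, which only share the spread estimate) were fitted in limma 3.58.1 (R 4.3.3) with a trended prior. P-values were adjusted by Benjamini-Hochberg over all 21765 probe sets at a threshold of 0.05. A gene is given by its probe set of highest mean log2 signal. Of the genes past the threshold, 530 have several tested probe sets, 142 have more than 1 past it, and 1 has opposite calls. The steps were tested on simulated data.

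The study describes independent experiments, and same-numbered LY294002 and DMSO arrays deviated together from their group means (r = 0.42, 0.16 and 0.30 over probe sets). A fit with the number as a block, which takes the numbers as pairs, was therefore run as an alternative. Calls and p-values are from the fit without the block unless another setting is named. Other alternatives were centring of the arrays on their medians, quantile normalization, other filters, floors and pseudocounts, no trend, the 2 groups alone and leaving out each array. The 2 groups alone with the block were added after the data were seen.

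Members and gene lists were chosen with earlier results of these data known. The 37 lists hold 2038 entries, of which 1896 matched a probe set, and 1 list is not reported here. In each list up to 5 members past the threshold with the smallest p (up to 5 in each direction) and up to 3 further members could be named. Outside the lists, the 20 rises and 20 falls with the smallest p were named among moderate changes, with a log2 change of at least 0.3 and under 1, groups that do not overlap and a mean signal of 200 or more where it was higher. Predicted genes and genes named in a report on the whole series were passed over. Igf1r, Irs1, Fgfr3, Akt1, Akt2, Ccn1, Eif4e, Fabp4, Fbl, Hspd1, Lipg, Ncl, Nhp2, Npm1, Plin2, Plin4, Pno1, Prkar1a, Rrp12, Rrp9, Shmt2, Yap1 and Wdr46 were added after their values were seen. Promoters were RefSeq windows of GRCm38.p6, in which 14 motifs were searched on both strands after the changes were known: the E-box CACGTG and its relatives GTCACGTG with CAAGTG and CATGTG, the forkhead motifs GTAAACA and TTGTTTAC, the ETS core CGGAAG, the nuclear receptor motif TGACCTTG, the SOX motif CATTGTT, the CREB motif TGACGTCA, the YY1 core CCATTTT, the motif TGCGCATG and those of NRF1 and MEF2.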

Additional observations from a re-analysis of the deposited data

How the results depend on the processing

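The number of probe sets past the threshold in LY294002 against DMSO was 1693, and stayed between 1134 and 1902 under quantile normalization, centring, other filters, floors or pseudocounts, and no variance trend. It was 488 with the 2 groups alone and 849 to 1908 with 1 array left out. With the replicate block it was 3057 (2322 with the 2 groups alone, an alternative chosen after the data were seen), and the block gave 2525 against UO126 and 2092 against SB202190, where 1439 and 1326 passed without it. Centring gave 806 against UO126 and 716 against SB202190.

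Ribosome biogenesis had 17 members past the threshold, 27 with the replicate block, and 20 with quantile normalization or a mean signal of 100 required. It had 9 without a filter, 6 with the 2 groups alone, 0 with centring and 7 to 15 with 1 array left out. Cholesterol efflux, lipoprotein uptake and lipid droplets had 15, and 9 with centring, 8 with the 2 groups alone and 9 to 15 with 1 array left out. The Hippo pathway and YAP targets had 5, and 13 with the replicate block, 8 with quantile normalization or with the 2 groups and the block, 3 without a filter, without a trend or with the 2 groups alone, and 3 to 8 with 1 array left out. The cause of these shifts was not tested.

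Of the 208 genes past the threshold that the naming rule or the later additions cover, 208 passed with the block, 200 with quantile normalization, 162 without a trend, 144 without a filter, 124 with centring, 87 with the 2 groups alone and 116 to 170 with 1 array left out, and none changed direction. With 3 arrays a group and no scanner values, probe sets under a signal of 50 have no firm fold change.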
